A study of Arabidopsis thaliana with 9 samples.

Results

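In Arabidopsis thaliana seedlings treated with an auxin and a cytokinin, 86 genes had a transcript level that peaked after 2 d and was lower both before the treatment and after 8 d of it. Whole wild-type seedlings were profiled on Affymetrix arrays in 3 groups of 3: seedlings aged 4 days (0 d, before transfer), and seedlings of that age kept for 2 d or 8 d on MS medium (Murashige and Skoog) with 2.26 µM 2,4-D, a synthetic auxin, and 0.46 µM kinetin, a cytokinin. All 3 groups began as 4-day-old seedlings grown on the same medium without the hormones, so seedling age rose with treatment time and the effects of age and of the hormones cannot be told apart. None of these groups was transferred to medium without the hormones, so effects of the transfer cannot be told apart from these either. Since the labels do not mention separate cultures, the spread between arrays, on which all p-values rest, may be technical. The series was made to set the hormone response beside that of FPX, another inducer of callus; FPX arrays were not analysed here.

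A mixture of an auxin and a cytokinin makes seedling tissue form callus, a mass of dividing cells. In Arabidopsis such callus begins largely from pericycle-like cells next to the vascular strands, by a programme that overlaps with that of lateral root initiation, and over the following days leaf and root cell identities are lost.

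The members were chosen by their measured values. For each probe set assigned to exactly 1 nuclear gene, the mean log2 signal of the 3 arrays was taken at 0 d, 2 d and 8 d. A member had a 2 d mean at least 0.9 log2 units above the 0 d mean and at least 0.9 above the 8 d mean (1.87-fold), and its highest mean was at least 7 (a signal of 128). ALPHA-VPE and SAG29, which also passed, were left out by the rule. This gave 86 of the 10343 probe sets in the deposited table, or 1.61% of the 5348 probe sets with 1 nuclear gene and a sufficient signal. They stood for 86 genes, all protein-coding. Whatever their annotation, 188 probe sets passed the thresholds, and the reverse pattern, a dip at 2 d by the same limits, was met by 42 probe sets with 1 nuclear gene. Since the differences of 2 d from 0 d and from 8 d chose the members, they are given below as descriptions without a test.

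In the table, 10323 of the 10343 probe sets differed across the 3 times by a one-way F test at an unadjusted p below 0.05. How they were kept is not given in the sources used here. If they were kept for differing on these arrays, adjusted p-values are too small, and shares of the table are not shares of the genome. Array medians were 445 to 452 at 0 d, 501 to 510 at 2 d and 538 to 546 at 8 d, and over all probe sets the median log2 change came to 0.19 for 2 d against 0 d and 0.40 for 8 d against 0 d. The number of arrays limits the precision. Of the fixed markers of leaf, root and stomata, 3 of 14 green tissue genes, 2 of 6 root hair genes and 2 of 6 stomatal lineage genes were measured, and none of the endodermis and xylem lists.

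Among the members, the arrays of a time group stood in a recurring order at 2 d and at 8 d. At 2 d, replicate 1 was the lowest of the 3 arrays for 66 of the 86 members and the highest for 6, whereas over all probe sets it was the lowest in 39.9% and the highest in 41.3%. The median member lay 0.27 log2 units below its 2 d mean in replicate 1 and 0.22 above it in replicate 3. At 8 d, replicate 3 was the highest array for 63 members, 73.3% of them, against 38.9% of all probe sets, and the median member lay 0.19 above its 8 d mean there and 0.18 below it in replicate 1. No such order was seen at 0 d, where replicates 1, 2 and 3 were the highest array for 24, 31 and 31 members. The median SD between the 3 arrays was 0.28 log2 units for members at 2 d, against 0.16 for all probe sets, and 0.24 at 8 d, against 0.13. Without 2 d replicate 1 the rule found 111 members, 85 of them among the 86, and without 8 d replicate 3 it found 92, including all 86.

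The median of the members' mean signals was 228 at 0 d, 626 at 2 d and 227 at 8 d. The difference of 2 d from 0 d ran from 0.91 to 3.16 with a median of 1.24, and that of 2 d from 8 d from 0.91 to 2.87 with a median of 1.52. Every 2 d array was above every 0 d and every 8 d array in all 86 members. The rule itself favours such a separation, and its share over all probe sets is not given here. Nothing is read from this count. The excess over 8 d was the larger of the 2 differences in 51 members and the excess over 0 d in 35. Both differences were at least 1.5 in 19 members and at least 2 in 2.

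**Figure D1:**
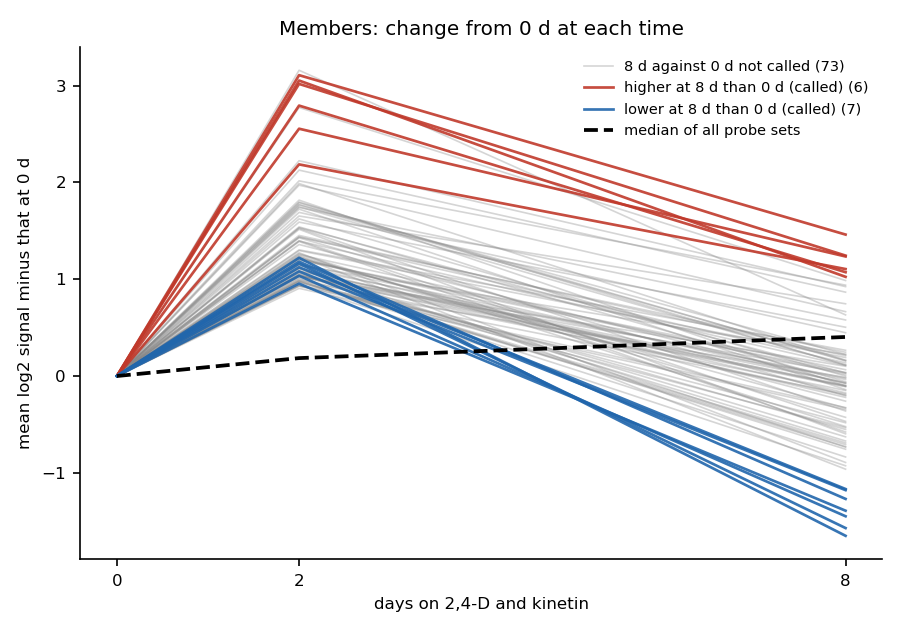
Mean log2 signal of each of the 86 members minus its value at 0 d, against days on the hormones (lines, 1 per member; 3 arrays per time). Red lines mark the 6 members called higher at 8 d than at 0 d, blue lines the 7 called lower, grey lines the other 73, and the dashed line the median of all probe sets, at 0.19 at 2 d and 0.40 at 8 d.

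**Figure D2:**
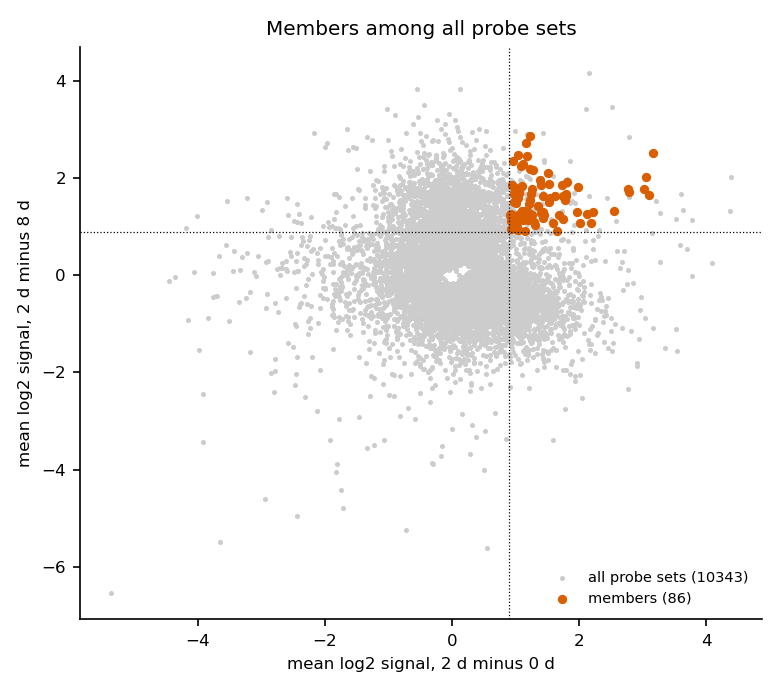
Mean log2 signal at 2 d minus 0 d (horizontal) against 2 d minus 8 d (vertical) for all 10343 probe sets (grey) and the 86 members (orange), with dotted lines at the thresholds of 0.9. Most members lie close to the thresholds, and only 2 exceed 2 on both axes. Grey points beyond both lines are probe sets without exactly 1 nuclear gene, 1 with a highest mean under 7, and the pair left out by name.

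Of the 86 genes, 11 are called here by a gene name, each found in the RefSeq gene table. They fall into transport, sugar metabolism, surface lipids, enzymes acting on glycosides or in defence, and auxin response. The remaining 75 are known here by locus only and are given no role.

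Of the named transporters, SWEET2 ended well below its starting level at 8 d, and NPF6.4 had its lowest mean there. SWEET2 (AT3G14770) encodes a sugar transporter of the vacuolar membrane. Its signals were 763, 671 and 871 at 0 d, 1083, 1709 and 1754 at 2 d, and 199, 298 and 418 at 8 d. The 3 groups did not overlap, and 8 d was the lowest. Its excess at 2 d was 0.95 over 0 d and 2.35 over 8 d, and the change of 8 d against 0 d was -1.39 (SE 0.26, limma, adjusted p = 0.0006). For every member this change is the one excess minus the other, so its p-value is tied to the values that chose the members. SWEET2 was close to the 2 d threshold and left the member set after median centring (0.78) or quantile normalization (0.89), and also when 0 d replicate 2 (0.86) or one of the 2 d arrays, replicate 2 (0.85) or replicate 3 (0.83), was left out.

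NPF6.4 (AT3G21670) belongs to the NRT1/PTR family of nitrate and peptide transporters. It had signals of 875, 824 and 1014 at 0 d, 1152, 2304 and 2493 at 2 d, and 397, 619 and 807 at 8 d. The low 2 d value is that of replicate 1, which still lies above all 0 d and 8 d arrays. All 8 d arrays were below all 0 d arrays. At 8 d against 0 d the change was -0.63 (SE 0.31; limma, adjusted p = 0.075), which was not called. Its smaller difference was 1.06, but 0.89 after median centring and 0.86 without 2 d replicate 3, short of the threshold.

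In sugar metabolism, ATSPS4F (AT4G10120) encodes a sucrose-phosphate synthase, the enzyme that commits hexose phosphates to sucrose. Its signals were 158, 203 and 149 at 0 d, 487, 733 and 883 at 2 d, and 243, 315 and 437 at 8 d. The 8 d arrays lay between the other groups, with a change against 0 d of 0.94 (SE 0.25; limma, adjusted p = 0.0049), short of the fold threshold of 1, though called without 0 d replicate 2 (1.07) or 8 d replicate 1 (1.14). Its excess at 2 d over 8 d was 1.08, and 0.87 without 8 d replicate 1 and 0.89 without 2 d replicate 3.

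F2KP (AT1G07110) makes and breaks down a regulatory fructose bisphosphate that tunes the flow of carbon between sucrose and starch. Its signals were 1001, 966 and 954 at 0 d, 1684, 2090 and 2231 at 2 d, and 841, 1012 and 1156 at 8 d. The 0 d and 8 d arrays overlapped, with a change of 0.031 (SE 0.14; limma, adjusted p = 0.84). Its excess at 2 d was 1.03 over 0 d and 0.999 over 8 d; the smaller of the 2 was 0.86 after median centring and 0.88 without 8 d replicate 1.

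Both surface lipid genes were back among their 0 d signals at 8 d. FACT (AT5G63560) encodes an acyltransferase that joins caffeic acid to fatty alcohols of root waxes. It had signals of 99.8, 83.8 and 85.0 at 0 d, 222, 229 and 254 at 2 d, and 75.9, 85.8 and 137 at 8 d. CER26 (AT4G13840), a protein of the elongation of very-long-chain wax precursors, had 246, 197 and 236 at 0 d, 601, 566 and 496 at 2 d, and 221, 263 and 292 at 8 d. In both genes the 2 d arrays stood clear of the rest, and the 0 d and 8 d arrays overlapped. The change of 8 d against 0 d was 0.11 (SE 0.19) for FACT and 0.19 (SE 0.14) for CER26, and neither was called (limma, adjusted p = 0.60 and 0.20).

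Another 4 members encode enzymes that act on sugar-bearing compounds or chitin, or that oxidise small molecules. BGLU33 (AT2G32860), of the beta glucosidase family, had signals of 114, 92.2 and 74.99 at 0 d, 328, 369 and 544 at 2 d, and 154, 144 and 216 at 8 d. All 8 d arrays were above all 0 d arrays, at a change of 0.87 (SE 0.23; limma, adjusted p = 0.0042), which was not called, though it was called at 1.02 without 0 d replicate 1. ChiC (AT4G19810), a class V chitinase, had 344, 365 and 338 at 0 d, 711, 761 and 949 at 2 d, and 327, 362 and 411 at 8 d, so that the first and last groups overlapped (0.065, SE 0.13; limma, adjusted p = 0.64).

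UGT76D1 (AT2G26480), a UDP-glucosyl transferase, and CYP71B35 (AT3G26310), a cytochrome P450, were the dimmest named members besides the auxin gene. UGT76D1 had signals of 67.6, 67.3 and 87.3 at 0 d, 173, 128 and 179 at 2 d, and 72.4, 60.3 and 57.6 at 8 d. CYP71B35 had 68.2, 55.3 and 46.2 at 0 d, 108, 158 and 131 at 2 d, and 47.1, 40.4 and 46.1 at 8 d, and its 2 d mean of 7.03 lay next to the minimum of 7. Signals this low make folds imprecise, and with 64 added to each signal the smaller difference was 0.69 for UGT76D1 and 0.70 for CYP71B35.

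SAUR10 (AT2G18010) belongs to the small auxin upregulated RNA family, many of whose members respond rapidly to auxin. Its signals were 47.7, 52.3 and 27.9 at 0 d, 194, 221 and 153 at 2 d, and 81.2, 109 and 78.6 at 8 d. The 3 groups did not overlap. Its change of 8 d against 0 d was 1.10 (SE 0.24; limma, adjusted p = 0.0013), but 0.83 without 0 d replicate 3, 0.96 without 8 d replicate 2 and 0.83 after median centring, none of them called. No other gene named SAUR was found among the probe sets assigned to exactly 1 nuclear gene.

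**Figure D3:**
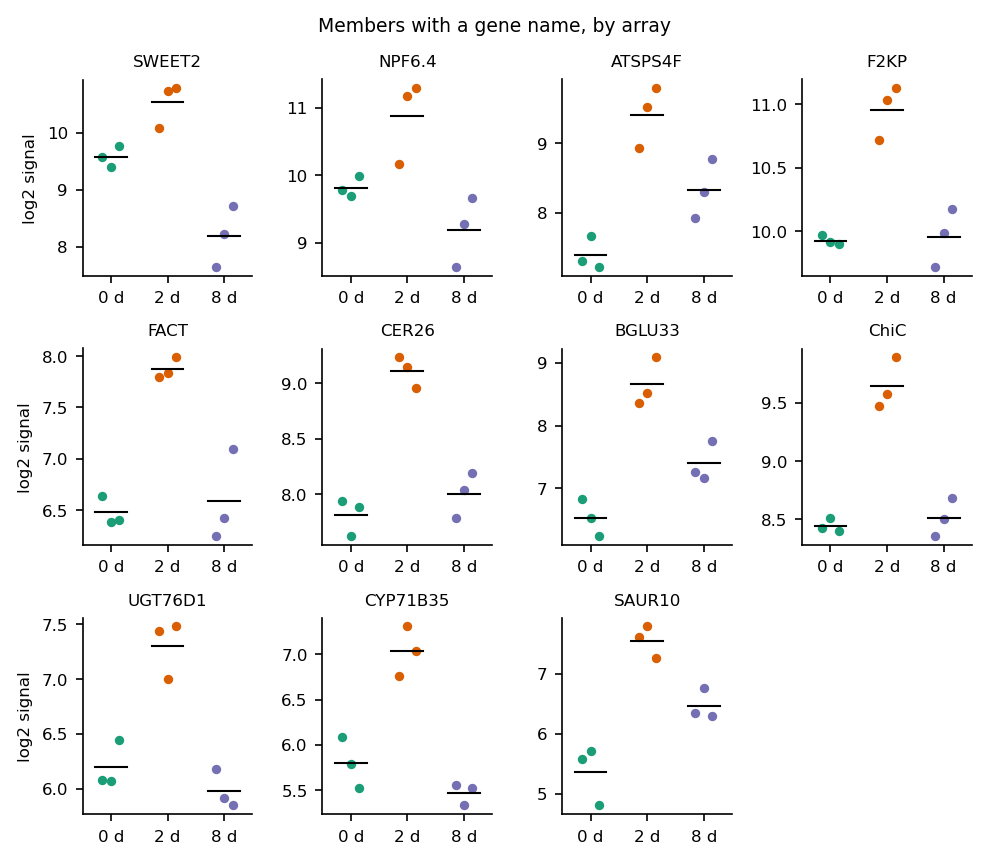
Log2 signal on each array (points; 3 per time) with the group mean (bar) for the 11 members with a gene name, at 0 d, 2 d and 8 d; the vertical scale differs between panels and does not start at 0. All 2 d points lie above all others in each panel, and all 8 d points lie below all 0 d points in SWEET2 and NPF6.4 and above them in SAUR10, ATSPS4F and BGLU33.

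Most measured relatives of SWEET2, NPF6.4, BGLU33, CYP71B35 and UGT76D1 were not called at 2 d. None were sought for ATSPS4F, F2KP, FACT, CER26 and ChiC, and none was found for SAUR10. Relatives were sought by the names SWEET, NPF, BGLU, CYP71B, UGT76 and SAUR in the reference, synonyms included. All had a probe set assigned to exactly 1 nuclear gene. Of these, 2 of 21 were called higher at 2 d than at 0 d and 5 of 21 lower (limma), beside 9.75% and 5.2% of all probe sets. Every call here asks for a change of 1 or more on the log2 scale together with an adjusted p below 0.05. Of 7 further BGLU genes 4 fell at 2 d, with BGLU45 at -2.46 (SE 0.46) and BGLU25 at -1.56 (SE 0.10), and none rose. CYP71B34, the direct neighbour of CYP71B35 on chromosome 3, was at 0.40 (SE 0.14; limma, adjusted p = 0.030) for 2 d against 0 d and fell by 1.20 (SE 0.14) between 2 d and 8 d. SAG29, also known as SWEET15 and left out of the members by name, rose by 3.63 (SE 0.15) at 2 d and fell by 1.34 (SE 0.15) between 2 d and 8 d, a course called for it alone among the 21. SWEET11 was at -0.10 (SE 0.19) and SWEET1 at -0.49 (SE 0.13) for 2 d against 0 d, neither called. The other relative called higher, AT1G59740 (NPF4.3), rose by 2.05 (SE 0.16) at 2 d and by a further 2.52 (SE 0.16) by 8 d. Between 2 d and 8 d, 8 of the 21 fell and 2 rose, beside 14.7% and 7.36% of all probe sets. These differences between relatives were not tested against each other.

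Ranked by the smaller of the 2 differences, the first 10 members are all known by locus only. AT5G37990 came first, with signals of 74.9, 38.2 and 90.4 at 0 d, 354, 706 and 736 at 2 d, and 67.0, 73.6 and 195 at 8 d. Its 2 d mean was 8.93-fold above 0 d and 5.76-fold above 8 d, folds that rest on low signals. AT1G55240 followed, at 81.6, 93.3 and 55.1 at 0 d, 495, 661 and 732 at 2 d, and 173, 153 and 134 at 8 d. These were the members with both differences above 2.

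The next 2 in rank were brighter and came back closer to the start. AT3G01060 had signals of 406, 423 and 434 at 0 d, 1413, 1683 and 1956 at 2 d, and 378, 492 and 563 at 8 d. AT5G01740 had 439, 503 and 359 at 0 d, 1391, 1802 and 1380 at 2 d, and 361, 365 and 486 at 8 d. For both, 0 d and 8 d overlapped while 2 d was 3.97-fold and 3.52-fold above 0 d. AT1G64500 and AT2G19650 had the same shape, with AT1G64500 at 235 ± 2.46 at 0 d, 789 ± 177 at 2 d and 225 ± 87.2 at 8 d, and AT2G19650 at 117 ± 7.92, 408 ± 35.9 and 129 ± 29.2 at the same times (signal, SD, n = 3).

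The other 4 of the first 10 stayed above their start at 8 d on average. AT2G14095 averaged 50.5 ± 6.49 at 0 d, 344 ± 13.5 at 2 d and 102 ± 27.4 at 8 d, and AT3G62730 averaged 55.5 ± 16.4, 451 ± 144 and 128 ± 8.96 at the same times (SD, n = 3). AT2G05910 averaged 79.1 ± 22.2 at 0 d, 546 ± 155 at 2 d and 173 ± 71.9 at 8 d. AT2G16005 had the widest spread of these at 8 d, with signals of 192, 126 and 262 at 0 d, 1203, 1748 and 1929 at 2 d, and 206, 616 and 1042 at 8 d. Its highest 8 d array came close to its lowest 2 d array.

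**Figure D4:**
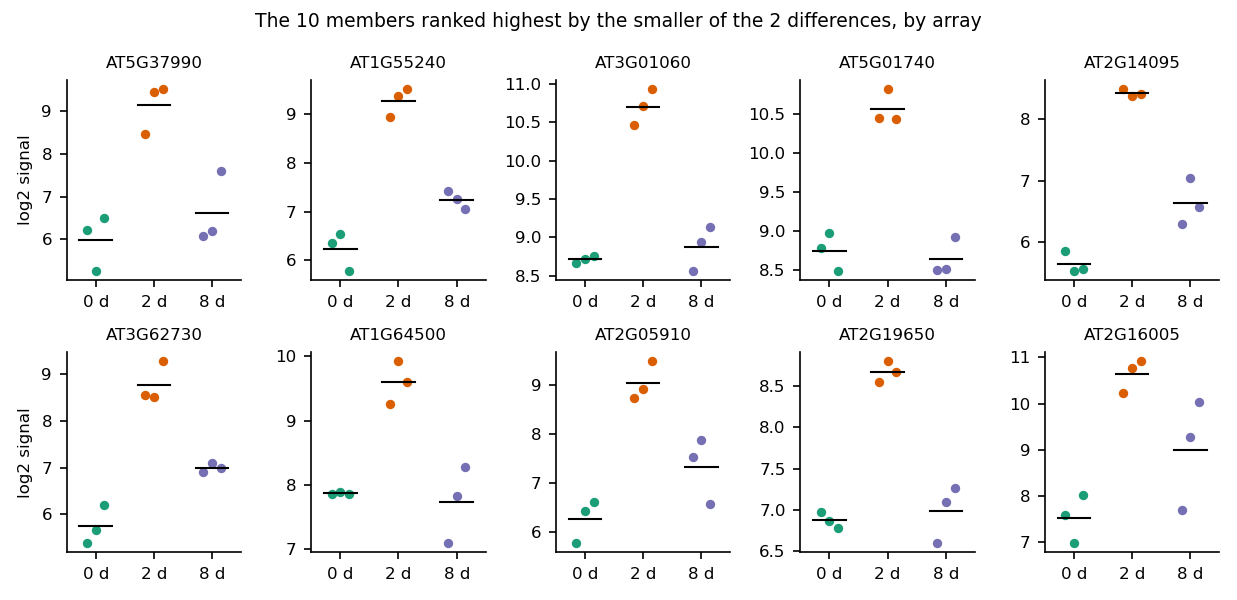
Log2 signal on each array (points; 3 per time) with the group mean (bar) at 0 d, 2 d and 8 d for the 10 members ranked highest by the smaller of the 2 differences; the vertical scale differs between panels and does not start at 0. The 2 d points form a group of their own in every panel, and AT2G16005 shows 8 d signals from 206 to 1042.

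The brightest member at 2 d was AT5G38980, with signals of 2725, 2530 and 2854 at 0 d, 4867, 6422 and 5500 at 2 d, and 2152, 2648 and 2770 at 8 d. The members just inside the thresholds were AT1G71480 with a smaller difference of 0.906, AT1G75880 with 0.907 and AT3G19850 with 0.922. Just outside lay AT5G43740 at 0.894, AT4G15690 at 0.893 and AT5G49170 at 0.885, and AT4G26830 passed both differences at a 2 d mean of 6.59. The first 36 members in rank kept their place under quantile normalization, under median or 75th percentile centring, and without each array in turn. In all, 49 of the 86 did so, among them 5 of the 11 named ones: FACT, CER26, BGLU33, ChiC and SAUR10. With 64 added to each signal 64 of the 86 stayed members, and SAUR10, at 0.72 in place of 1.08, and FACT, at 0.89 in place of 1.29, did not.

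One member gene, AT1G01320, has a second probe set, which the rule did not choose. Its signals were 102, 139 and 115 at 0 d, 192, 174 and 160 at 2 d, and 88.6, 91.7 and 58.7 at 8 d, so that 2 d was again above all other arrays. The difference of 2 d from 0 d was 0.57 (SE 0.18; limma, adjusted p = 0.019), short of the fold threshold, and 8 d was lower than 2 d by 1.16 (SE 0.18; limma, adjusted p = 0.00031). Both probe sets read the same RNA samples.

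The comparison of 8 d with 0 d sets the members' late level beside their starting level. Of the 86, 6 were called higher and 7 lower at 8 d, 6.98% and 8.14%, beside 25.4% and 18.1% of all probe sets, and 73 were not called. Both differences at 2 d had to pass 0.9, and that from 0 d was at least 2 in 11 members and that from 8 d in 12. The change of 8 d against 0 d is the one difference minus the other. It is thus tied to the values that chose the members, and nothing is read from these shares. The median change was -0.087, against 0.40 for all probe sets, with 48 members within 0.5 of 0. The 8 d arrays did not overlap the 0 d arrays in 38 members, 12 higher and 26 lower (14.0% and 30.2%, beside 55.2% and 36.7% of all probe sets).

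The members called higher at 8 d than at 0 d were AT2G16005 at 1.46 (SE 0.50), AT3G62730 at 1.24 (SE 0.24), AT3G16670 at 1.23 (SE 0.34), SAUR10 at 1.10, AT2G05910 at 1.07 (SE 0.34) and AT1G55240 at 1.02 (SE 0.21), with adjusted p from 0.00058 to 0.017 (limma). Their median 0 d signal was 77.9. After median centring 1 of these 6 calls was left, with AT3G62730 at 0.97 and AT3G16670 at 0.96, and 3 after quantile normalization, 3 with 16 added to each signal and 3 without 8 d replicate 2. AT2G16005 lost its call when one of the 8 d arrays, replicate 3 (0.94) or replicate 2 (1.32), or 0 d replicate 2 (1.18) was left out. AT2G05910 lost it when 0 d replicate 1 (0.82) or one of the 8 d arrays, replicate 1 (0.97) or replicate 2 (0.79), was left out, and AT1G55240 without 0 d replicate 3 (0.80) or 8 d replicate 1 (0.93). AT2G14095, at 0.99 and not called, was called when 0 d replicate 1 (1.09) or one of the 8 d arrays, replicate 1 (1.16) or replicate 3 (1.02), was left out, and AT1G75880, at 0.75, without 8 d replicate 1 (1.10).

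The members that ended lower at 8 d than at 0 d were AT5G42760 at -1.65 (SE 0.21), AT4G12830 at -1.57 (SE 0.30), AT4G25780 at -1.45 (SE 0.28), SWEET2, AT1G62510 at -1.27 (SE 0.26), AT5G35970 at -1.18 (SE 0.18) and AT3G28270 at -1.17 (SE 0.42), with adjusted p from 4e-05 to 0.023 (limma). AT5G42760 had signals of 55.7, 39.5 and 67.2 at 8 d and 161, 168 and 169 at 0 d, after 292, 411 and 482 at 2 d. AT1G62510 had 482, 541 and 718 at 8 d and 1543, 1689 and 1007 at 0 d, after 2172, 3531 and 3988 at 2 d. In all 7 genes the 8 d arrays were below all 0 d arrays. All 7 calls also held after quantile normalization and median centring, where 15 and 14 members were called lower. With 64 added to each signal 4 of the 7 were left, with AT5G42760 and AT4G25780 at -0.97 and AT3G28270 at -0.82. Without the dimmest 40% of probe sets, which removed 51 members, 3 were left. Like SWEET2, AT4G12830 (0.89), AT4G25780 (0.76) and AT3G28270 (0.885) fell short of the member threshold after quantile normalization. AT3G28270 lost its call when 8 d replicate 1 (-0.63) or one of the 0 d arrays, replicate 1 (-1.12) or replicate 2 (-1.02), was left out.

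Like these 7 genes, the summed markers of leaf, stomatal and root hair cells were lower at 8 d than at 0 d. The summed signal of the 3 measured green tissue markers ran from 44000 to 50020 at 0 d, from 38730 to 45540 at 2 d and from 18540 to 23320 at 8 d. That of the 2 stomatal lineage markers ran from 632 to 766 at 0 d, from 491 to 642 at 2 d and from 80.1 to 123 at 8 d. In whole seedlings, fewer cells of a type and less RNA per cell cannot be told apart, and the part of these markers in the fall of the 7 genes was not tested. At 2 d neither of these sums was above its 0 d range. The stomatal sum joins genes whose changes from 0 d to 2 d had opposite signs, neither of them called (limma). FMA was at 0.38 (SE 0.24) and STOMAGEN at -0.55 (SE 0.53), and both were called lower at 8 d than at 2 d. The part of these cell types in the 2 d peak of the members was not tested. The 2 root hair markers were already down at 2 d, with a sum of 166 to 288, against 1097 to 1124 at 0 d and 118 to 231 at 8 d.

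**Figure D5:**
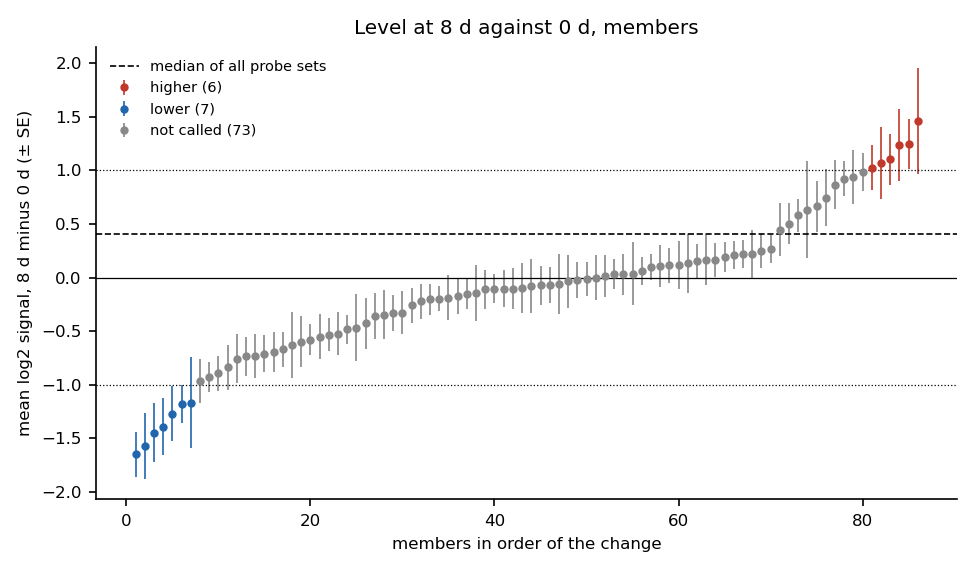
Change in mean log2 signal from 0 d to 8 d (8 d minus 0 d, with SE from limma, 3 arrays per time) for the 86 members in order of the change. Red points are the 6 called higher, blue points the 7 called lower and grey points the 73 not called; dotted lines mark the fold threshold of 1 and the dashed line the median of all probe sets, 0.40.

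In the genome the members were spread over all 5 chromosomes, at 1.58%, 1.5%, 1.95%, 1.15% and 1.70% of the eligible probe sets of chromosomes 1 to 5. One pair of members lies side by side in the gene order of the reference, AT3G16660 and AT3G16670 on chromosome 3. AT3G16660 had signals of 212, 228 and 228 at 0 d, 911, 488 and 679 at 2 d, and 303, 351 and 297 at 8 d. AT3G16670 had 661, 913 and 558 at 0 d, 5802, 2359 and 4988 at 2 d, and 1719, 2170 and 1177 at 8 d. Both had their highest 2 d signal in replicate 1 and their lowest in replicate 2, unlike most members.

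Of 39 measured direct neighbours that are no members, 1 was called higher at 2 d than at 0 d (limma), beside 9.75% of all probe sets. It was AT1G67865, next to AT1G67870, at 2.41, and its 2 d mean minus its 8 d mean was -0.74. Between 2 d and 8 d, 8 of the 39 fell and 4 rose, beside 14.7% and 7.36% of all probe sets, and nothing particular to the neighbours is read from these counts. The member AT2G29300 lies between AT2G29290 and AT2G29310. It was 1.62 above both other times at 2 d, while AT2G29290 was 0.80 above 0 d and 2.63 above 8 d, and AT2G29310 was 0.38 and 1.06 above them.

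The 25 gene lists for hormones, growth, nutrients, stress and cell types held 222 genes. Of these, 34 were measured by a probe set assigned to exactly 1 nuclear gene. SWEET2 was the 1 member among these 34, 2.94% of them, beside 1.61% of the eligible probe sets, too few genes to read anything from the share. ALPHA-VPE and SAG29, the measured genes of the senescence list, were called higher at 2 d than at 0 d and lower at 8 d than at 2 d (limma), a pattern called in 1.34% of all probe sets, and were left out by name. Among the remaining 31, 12 were called higher and 3 lower at 2 d against 0 d (beside 9.75% and 5.2% of all probe sets), and 3 higher and 9 lower at 8 d against 2 d (beside 7.36% and 14.7%). The lists were written with earlier results of these data known, so nothing is read from these counts. In 11 lists no gene was measured in this way, among them those of heat shock, defence, jasmonate, protein folding, iron, nitrate and phosphate. The members were therefore not set beside these. Whether other probe sets in the table stand for genes of these lists was not examined.

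SAG29 and ALPHA-VPE, the genes left out by name, had the course of the members with a larger early rise. SAG29, a sugar transporter, had mean signals of 141 ± 12.8 at 0 d, 1753 ± 203 at 2 d and 694 ± 127 at 8 d, and ALPHA-VPE, a vacuolar processing enzyme, had 60.3 ± 12.5, 1249 ± 120 and 325 ± 125 at the same times (SD, n = 3). Both stayed above 0 d at 8 d, at 2.29 (SE 0.15) and 2.38 (SE 0.26).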

How the data were processed

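Total RNA of whole seedlings was measured on 9 Affymetrix arrays. The deposited values are linear probe set intensities; per the submitters' processing notes they come from MAS5, whose scaling target and version the sources used here do not give. A floor of 1 was set before log2 and altered 0 values. Titles gave each array's time and replicate number. Linear models with 1 mean per time were fitted to all 9 arrays and 10343 probe sets, without 23 controls, with limma 3.58.1 in R 4.3.3. Two-sided p-values were adjusted over all probe sets (Benjamini-Hochberg); calls need an adjusted p below 0.05 together with a change of 1 or more on the log2 scale. The fit was tested on simulated data. Counts were made with Python 3.11.15 and pandas 2.3.3.

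Gene names came from the array annotation, updated from the RefSeq gene table of assembly TAIR10.1. Of the members, 85 matched it by gene identifier and SAUR10 by locus. Genes named in the text are the 10 members highest by the smaller difference and the 11 called by a gene name. Also named are 3 on each side of the threshold and the largest changes at 8 d against 0 d. AT5G35970, AT3G28270, AT5G38980, AT1G01320, AT2G29300 and the neighbours and relatives were named after their values were seen. The members and the 25 gene lists, written from general knowledge by locus, were chosen with earlier results of these data known, and 11 lists with no measured gene were not analysed here. Detection calls and sequences were not used here, and a planned search of promoters for motifs was not run.

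The alternatives tried were median or 75th percentile centring, quantile normalization, adding 16 or 64 to each signal, leaving out each array or the dimmest 40% of probe sets, other thresholds, a trended and robust prior, only the arrays compared, and the replicate number as a block.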

Additional observations from a re-analysis of the deposited data

How the results depend on the processing

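The number of members, 86, was 64 after quantile normalization, 67 after median centring, 64 with 64 added to each signal, 19 with differences of at least 1.5, and 79 to 111 without single arrays. The count of members higher at 8 d than at 0 d, 6, was 3 after quantile normalization, 1 after median centring, 3 with 16 and 2 with 64 added, 2 without the dimmest 40% of probe sets, which removed 51 members, and 14 with no fold threshold. It ran from 3, without 8 d replicate 2, to 8 without single arrays. The count of members lower at 8 d, 7, was 15, 14, 4 (64 added), 3 (dimmest left out) and 23 (no fold threshold) under the same settings, and 6 to 8 without single arrays. The median change of all probe sets at 8 d against 0 d was 0.40, but 0.19 after quantile normalization and 0.13 after median centring. Among the 31 list genes outside the members, 12 were higher at 2 d (10 to 12 without single arrays) and 3 lower (0 without the dimmest). At 8 d against 2 d, 3 were higher (5 after quantile normalization, 11 with no fold threshold, 3 to 5 without single arrays, with 5 without 2 d replicate 1) and 9 lower (5 with 64 added, 5 without the dimmest, 7 to 9 without single arrays). The 13 called changes of 8 d against 0 d kept their sign under these settings, but 9 uncalled ones among the named members, all within 0.222 of 0, changed sign under at least 1 of them: AT3G01060, AT5G01740, AT1G64500, AT2G19650, AT3G19850, ChiC, F2KP, FACT and CER26. The replicate number as a block left 6 members higher and 7 lower, and 12, 3, 3 and 9 list genes. Same-numbered arrays correlated at -0.0906 to 0.231 in their deviations from the group means, and differently numbered arrays at -0.271 to 0.227. Among the members, replicate 1 was the lowest array for 66 at 2 d and 54 at 8 d, but for 18 at 0 d. Whether the replicate numbers pair the arrays is not settled by these values. MAS5 signals carry no detection calls here, so whether a signal under 100, as in 18 members at 0 d and 13 at 8 d, lies above background is unknown.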
